A study of Homo sapiens with 54 samples.

Results

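Human ribosomal RNA (rRNA) genes are repeated many times and are of 2 kinds, 45S and 5S. ChIP-seq regions at both kinds were collected from the deposited peak lists. Members were every region in any of 16 peak lists that starts in the 350 kb of chr21 up to position 8500000, where GRCh38 holds 45S rRNA genes, and every region that lies within 200 bp of one of the 17 annotated 5S rRNA genes, RNA5S1 to RNA5S17, on chr1. They numbered 581 of 520465 regions in all: 391 at the 45S genes (139 in vehicle lists, 252 in R5020 lists) and 190 at the 5S genes (91 and 99). The rule used position only. The cells were T47D, an established human breast cancer line that carries estrogen and progesterone receptors, kept in medium with serum and insulin and given either ethanol, the vehicle, or the synthetic progestin R5020 for 1 h. Chromatin was immunoprecipitated with 8 antibodies, which makes 16 ChIP groups of 3 libraries (48 libraries), beside 6 input libraries in 2 groups. A first set of libraries used antibodies to the progesterone receptor (PR), Maf1, Brf1, POLR3A and acetylated lysine 27 of histone H3 (H3K27Ac). A second set used antibodies to POLR3C, POLR3G and POLR3GL. For 4 libraries titled R5020 the treatment tag reads ethanol. These are replicate 1 of POLR3G, replicate 1 of POLR3GL, and replicates 1 and 2 of POLR3C. Their lists are called R5020 here after the titles.

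Each antibody and treatment has 1 deposited list, which stands for its 3 libraries, so the values carry no error between replicates and no test between treatments was possible. The labels do not say whether the 3 libraries came from separate cultures. Read depth is unknown, because the lists hold no counts. A further caution applies to every value: the copies of each rRNA gene are nearly identical in sequence, the real genome holds more copies than the assembly, and the handling of reads that map to several places is not given in the sources used here. A region at 1 copy therefore cannot be assigned to that copy, and copies are not replicates. As a check of the cell line, H3K27Ac regions lay within 1 kb of an end of 6 of 6 luminal breast genes (ESR1, PGR, GATA3, FOXA1, KRT8 and KRT18) in both treatments. Of 6 genes of other cell types 1 had such a region in each treatment, CD3E with vehicle and VIM with R5020.

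As background, RNA polymerase I transcribes the 45S precursor in the nucleolus, and processing of the precursor removes its external and internal transcribed spacers and leaves 18S, 5.8S and 28S rRNA. RNA polymerase III transcribes 5S rRNA, tRNAs and a few other short RNAs, and the 5S gene differs from tRNA genes in that it needs the zinc finger factor TFIIIA, which binds inside the gene, before TFIIIC and then the Brf1-containing factor TFIIIB assemble. POLR3A is the largest polymerase III subunit, POLR3C belongs to its initiation subcomplex, and POLR3G and POLR3GL are alternative versions of 1 further subunit of that subcomplex. Maf1 represses polymerase III. PR is a nuclear receptor that binds DNA when activated by progestins, and H3K27Ac marks active promoters and enhancers.

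Within the 45S window the annotation gives 3 full genes in the order 18S, 5.8S, 28S along the chromosome: RNA45SN2 (chr21:8205988-8219302), RNA45SN3 (chr21:8389035-8402343) and RNA45SN1 (chr21:8433222-8446572). A copy annotated as a pseudogene lies at chr21:8253842-8260930. The window also holds 6 microRNA genes, 3 of which have a hairpin in the RefSeq table of GRCh38.p14. Their sequences are shown because MIR6724-2 and MIR6724-4 can be compared base for base, and because all 3 are rich in G and C. The sequences of the 45S genes themselves were not compared. Capitals mark mature microRNA, and all 3 are read from the plus strand.
MIR6724-2, chr21:8249505-8249596: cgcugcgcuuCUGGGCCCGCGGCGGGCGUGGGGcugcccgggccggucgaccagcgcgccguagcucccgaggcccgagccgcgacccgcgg
MIR6724-4, chr21:8432530-8432621: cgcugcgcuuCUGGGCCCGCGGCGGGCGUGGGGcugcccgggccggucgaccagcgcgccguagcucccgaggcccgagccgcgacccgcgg
MIR10396B, chr21:8436324-8436374: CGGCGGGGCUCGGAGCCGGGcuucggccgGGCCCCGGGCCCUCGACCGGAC
The hairpins MIR6724-2 and MIR6724-4 are identical over all 92 bases, and 83.7% of their bases are G or C. MIR6724-4 starts 692 bp before RNA45SN1. MIR10396B, of 51 bases and 86.3% G and C, starts 3102 bp into RNA45SN1, in the spacer ahead of 18S.

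The first comparison was the number of 45S regions in each list. Brf1, a subunit of TFIIIB, had 9 regions in the window with vehicle and 87 with R5020. The repressor Maf1 had 22 and 48, the polymerase subunit POLR3A 33 and 50, and H3K27Ac 18 and 30. PR went the other way, with 57 regions with vehicle and 37 with R5020. POLR3C, POLR3G and POLR3GL had none in either treatment. All 391 members at 45S thus came from the 5 antibodies of the first library set, and antibody and library set cannot be told apart.

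**Figure D1:**
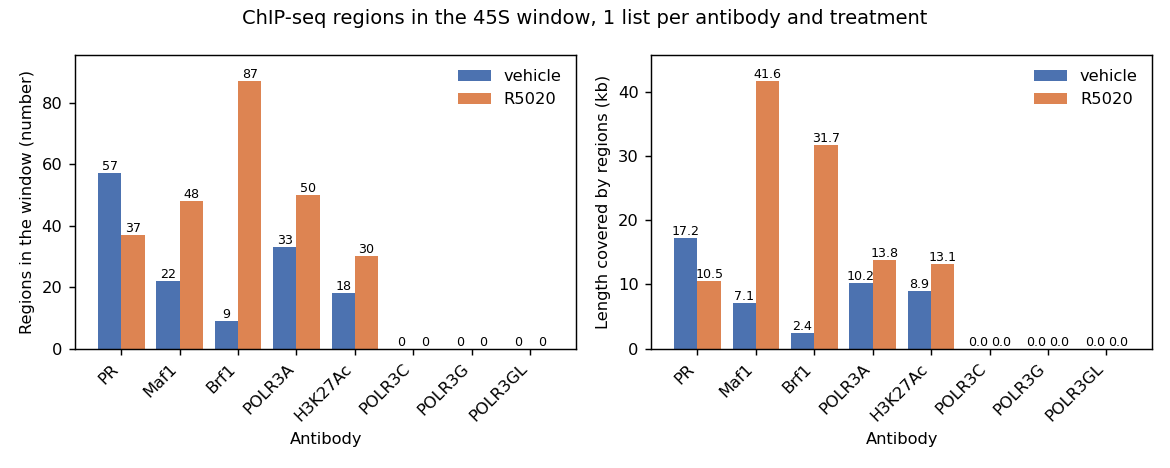
Number of regions that start in the 45S window of chr21 (left panel) and the length they cover (right panel, kb), for each antibody with vehicle (blue) and R5020 (orange), 1 list per bar. Brf1 stands at 9 and 87 regions, and PR is the antibody with fewer regions with R5020 (37) than with vehicle (57).

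List length differs widely between treatments, so each count was read as a share of its list, with a 95% Wilson interval that covers counting error only. The 9 Brf1 regions of the vehicle list were 2.35% of its 383 regions (1.24 to 4.40). The 87 of the R5020 list were 6.43% of its 1354 regions (5.24 to 7.86). The 45S count was 9.67 times as high with R5020, whereas the whole list was 3.54 times as long. Brf1 and H3K27Ac were the antibodies whose 45S ratio of R5020 to vehicle was above the ratio of the list lengths. For H3K27Ac the ratios were 1.67 for the 45S count and 1.27 for the list. Its shares were 0.0202% and 0.0266%, and their intervals overlap (0.0128 to 0.0319 and 0.0186 to 0.0380).

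Maf1 and POLR3A had more 45S regions with R5020, but not more than their longer lists. Maf1 regions at 45S made up 0.71% of the 3099 in the vehicle list (0.469 to 1.07) and 0.21% of the 22891 in the R5020 list (0.158 to 0.278). POLR3A regions were 4.54% of 727 (3.25 to 6.31) and 4.01% of 1246 (3.06 to 5.25), with overlapping intervals. PR regions were 0.847% of 6731 (0.654 to 1.10) and 0.0213% of 173579 (0.0155 to 0.0294). The PR list was 25.8 times as long with R5020, and its 45S count was 0.649 times that with vehicle. For the second library set, 0 regions allow up to 0.425% and 0.416% of the POLR3C lists, 0.00513% and 0.00639% of the POLR3G lists, and 0.272% and 0.498% of the POLR3GL lists (3 regions of the list, vehicle and R5020).

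These directions depend on how the lists are cut. When each pair of lists was reduced to equal numbers of regions by -log10 q, the authors' measure of how far a region exceeds its background, the R5020 counts became 1 for Brf1, 4 for Maf1, 3 for POLR3A and 0 for PR, against unchanged vehicle counts of 9, 22, 33 and 57. The order of the treatments was thus turned for Brf1, Maf1 and POLR3A, while H3K27Ac kept 18 and 21. The additional 45S regions of the R5020 lists of Brf1, Maf1 and POLR3A therefore ranked below the length of the vehicle list. The vehicle Brf1 regions themselves ranked 341 to 381 of 383, at the end of that list. At a fold of at least 5 the order turned for PR, with 1 region with vehicle and 5 with R5020. At that fold it was kept for Brf1 (0 and 45), Maf1 (1 and 28) and POLR3A (4 and 10). At a -log10 q of at least 5 it was also kept, with 3 and 57 for Brf1, 11 and 41 for Maf1 and 22 and 25 for POLR3A.

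The density of regions in the window was set beside 8830 windows of the same 350 kb. For POLR3A no other window held as many regions in either treatment (0% of windows). For Brf1, 0.113% of windows held at least 9 regions with vehicle and 0% held at least 87 with R5020. For Maf1 the shares were 0% and 0.0113%, the latter a single window. PR was in the same position with vehicle (0%), but with R5020 16.9% of windows held at least 37 PR regions. For H3K27Ac, 18.6% and 14.9% of windows held as many. The rRNA window was thus among the densest places in the lists of POLR3A, Brf1 and Maf1 and in the vehicle list of PR, and not in those of the histone mark.

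Folds at 45S lay low in the lists of PR and in the vehicle lists of Brf1 and POLR3A, with medians between the 39.2 and 70.1 percentiles in the other 6 lists with members. The fold is the authors' ratio of signal at the summit to the caller's background, and it is read here only within a list. Brf1 regions at 45S had a median fold of 3.28 (2.77 to 4.37) with vehicle, at the 6.01 percentile of a list whose median was 16.9. With R5020 the median was 5.14 (2.85 to 11.6), at the 56.3 percentile of a list whose median was 4.66. For POLR3A the medians were 4.02 (2.59 to 6.11), at the 17.3 percentile, and 4.22 (2.58 to 5.54), at the 51.7 percentile. The POLR3A list itself had median folds of 9.58 and 4.01, so the place of the 45S regions in the list follows the rest of the list too. Maf1 had 3.91 (2.61 to 5.34) and 5.33 (2.49 to 10.9), at the 51.3 and 70.1 percentiles. PR had 3.22 (1.95 to 5.69) and 2.99 (2.05 to 12.7), at the 19.8 and 5.28 percentiles. H3K27Ac had 3.59 (2.56 to 6.97) and 3.45 (2.33 to 9.69), at the 47.3 and 39.2 percentiles.

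Position along the genes was examined next. With R5020, Maf1 regions covered 79.0% of RNA45SN2, 77.7% of RNA45SN3 and 79.2% of RNA45SN1, against 17.3%, 11.7% and 13.0% with vehicle. Brf1 regions covered 47.3%, 33.8% and 26.3% with R5020, against 9.62%, 1.95% and 1.33%. In the full lists all 3 copies thus showed the broader cover with R5020 for both proteins. With equal numbers of regions, 1 Brf1 and 4 Maf1 regions remained in the window with R5020. The Brf1 region lay past RNA45SN2. No Maf1 region was left at RNA45SN3, where the best rank was 3929 against 3099 regions in the vehicle list. Cover at that setting was not computed. POLR3A did not share it, with 17.0%, 10.2% and 6.81% with vehicle and 13.3%, 12.4% and 10.1% with R5020. PR covered 16.1%, 4.58% and 11.0%, then 12.9%, 8.81% and 6.60%.

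**Figure D2:**
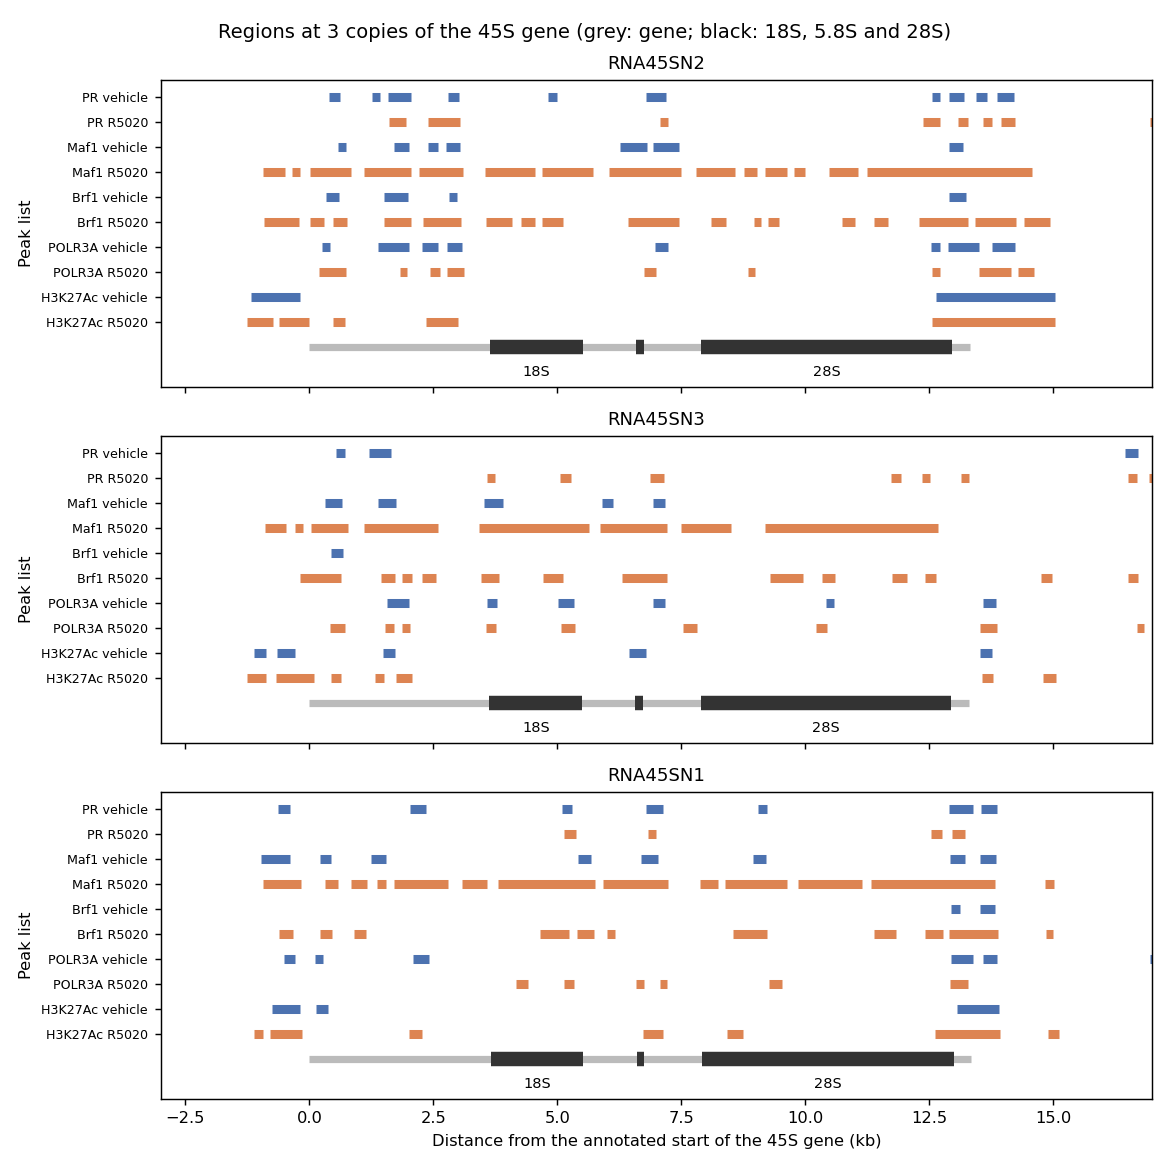
Regions of the 5 antibodies with members at 45S along each annotated copy, as distance from the gene start (x axis, kb), with vehicle in blue and R5020 in orange. The grey bar is the gene and the black boxes are 18S, 5.8S and 28S; Maf1 with R5020 covers 77.7% to 79.2% of each copy.

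The part of the precursor that was covered also differed. With vehicle, Maf1 regions lay mainly in transcribed spacers, of which they covered 24.4%, and covered 4.84% of the mature rRNA parts. With R5020 they covered 70.0% of the spacers and 86.2% of the mature parts, including 5326 of the 5607 bp of 18S and 82.5% of 28S. Brf1 regions covered 8.56% of the spacers and 0.546% of the mature parts with vehicle, and 35.6% and 35.9% with R5020. Low cover of the mature parts by Brf1 and Maf1 was thus seen only in their vehicle lists. It was not particular to these 2 proteins, as the values of POLR3A, PR and H3K27Ac below show. POLR3A covered 19.2% of the spacers and 4.40% of the mature parts with vehicle, and 15.5% and 8.76% with R5020. PR covered 18.0% and 4.06%, then 12.0% and 7.18%. Spacers exceeded mature parts for both proteins in both treatments.

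H3K27Ac covered more of the flanks than of the genes. Its regions covered 39.2% of the 2 kb flanks with vehicle and 50.4% with R5020, 6.99% and 16.4% of the transcribed spacers, and 2.23% and 5.29% of the mature parts, with no base of 18S in either treatment. Of the genes themselves it covered 5.08%, 4.27% and 4.02% of RNA45SN2, RNA45SN3 and RNA45SN1 with vehicle and 12.2%, 6.27% and 13.0% with R5020. A region in the 5′ external spacer of RNA45SN2 with R5020, chr21:8208348-8208981, had a fold of 7.14. All 3 copies had an H3K27Ac region within 1 kb of both the gene start and the gene end in both treatments. At the start the folds were 4.38, 4.34 and 5.55 with vehicle for RNA45SN2, RNA45SN3 and RNA45SN1, and 7.24, 4.13 and 6.92 with R5020. At the end they were 6.97, 3.40 and 5.75, then 9.69, 3.74 and 3.92.

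The other antibodies differed in which end was marked. PR had a region within 1 kb of the start at 3 of 3 copies with vehicle and at 0 of 3 with R5020, and within 1 kb of the end at 2 and 3 copies. The PR folds at the end were 4.89 for RNA45SN2 and 3.62 for RNA45SN1 with vehicle, and 6.31, 3.92 and 3.22 with R5020. Brf1 had start regions at 2 and 3 copies and end regions at 2 and 3 copies. Its highest end value was at RNA45SN2 in both lists, 4.37 with vehicle and 11.6 with R5020. POLR3A had start regions at 2 copies in each treatment and end regions at 3 copies in each. Maf1 had start regions at 3 copies in each treatment and end regions at 2 and 3 copies.

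The strongest region of each list, by -log10 q, lay at 1 place in most cases. In 6 of the 10 lists with members the summit stood 399 to 778 bp past the end of RNA45SN2. For POLR3A this was chr21:8219762-8220224 with vehicle (fold 6.10, -log10 q 21.3) and chr21:8219489-8220133 with R5020 (5.54, 9.98). For PR with vehicle it was chr21:8219850-8220203 (4.89, 13.1), and for Brf1 with R5020 chr21:8219404-8220235 (11.6, 26.4). The summits of these PR, Brf1 and vehicle POLR3A regions were 776, 774 and 778 bp past the gene, so 3 antibodies peaked within a few bases of each other. For H3K27Ac the broader regions chr21:8218626-8221026 (6.97, 24.6) and chr21:8218546-8221014 (9.69, 33.2) spanned the same place. Brf1 with vehicle came close to it, with chr21:8218881-8219237 (4.37, 6.69) and its summit in the 3′ external spacer.

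Maf1 and PR with R5020 were the exceptions. Maf1 was strongest in the 5′ external spacer of RNA45SN2, at chr21:8208753-8209020 with vehicle (fold 5.34, -log10 q 18.1) and chr21:8208207-8209088 with R5020 (10.9, 47.7), with summits 2894 and 2906 bp from the gene start. PR with R5020 was strongest at chr21:8338852-8339362 (12.7, 52.3), which lies 48999 bp from the nearest annotated gene, MIR6724-3. The PR regions next in fold were chr21:8155653-8156292 (11.4) and chr21:8153324-8153657 (8.64), both ahead of RNA45SN2. Only the next one, chr21:8219938-8220212 (6.31), lay at a 45S gene. The 3 highest PR folds with R5020 were thus outside the transcription units, and the region past RNA45SN2 that led the vehicle list was the fourth by fold.

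Many regions lay outside the 3 genes: between them, at the pseudogene copy, ahead of RNA45SN2 or after RNA45SN1. Summits outside the 3 genes and their 2 kb flanks made up 38 of 57 PR regions with vehicle and 20 of 37 with R5020. For Brf1 they were 2 of 9 and 47 of 87, for POLR3A 14 of 33 and 27 of 50, for Maf1 2 of 22 and 13 of 48, and for H3K27Ac 8 of 18 and 11 of 30. Maf1 was thus the most gene-bound, with 90.9% and 72.9% of its regions at the genes and flanks. The pseudogene copy held 8 Maf1 regions and 3 Brf1 regions with R5020, and 1 Maf1 and 1 PR region with vehicle.

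Regions of the same antibody were then matched between treatments by at least 1 shared base. Of the 57 PR regions with vehicle, 16 (28.1%, Wilson 18.1 to 40.8) overlapped a PR region with R5020, against 91.1% of the whole vehicle list. Conversely 15 of 37 PR regions with R5020 (40.5%, 26.3 to 56.5) overlapped a vehicle region, against 3.41% of the whole list. The share of the whole list lay outside the Wilson interval in both directions. That interval treats regions at near-identical copies as independent, so this is no test. The comparison was also not matched for density, and no other window of the vehicle PR list held as many regions. POLR3A matched at 18 of 33 regions with vehicle (54.5%, against 80.9% of the list) and at 18 of 50 with R5020 (36%, against 47.3%). H3K27Ac matched at 10 of 18 (55.6%, against 67.3%) and 11 of 30 (36.7%, against 58.3%). Maf1 regions with vehicle all met one with R5020 (22 of 22, against 91.5%), and 18 of 48 did the reverse (37.5%, against 11.6%). For Brf1, 8 of 9 vehicle regions were met (88.9%, against 96.3%) and 7 of 87 with R5020 (8.05%, 3.95 to 15.7, against 27%).

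Overlap between antibodies was read as a share of each list, without knowing whether the lists share a control library. The density and width of regions in the window were not matched to those of the whole lists, and both bear on overlap. The Wilson intervals treat regions at near-identical copies as independent, so they describe counting error only and are no test. With vehicle, 7 of 33 POLR3A regions at 45S overlapped a Brf1 region (21.2%, against 49.2% of the POLR3A list) and 7 of 9 Brf1 regions a POLR3A region (77.8%, against 92.4%). With R5020 the shares were 28 of 50 (56%, against 62.5%) and 28 of 87 (32.2%, against 55.5%). These shares at 45S were below those of the list in all 4 readings, although the Wilson interval of POLR3A with R5020 and of Brf1 with vehicle includes the share of the list. Maf1 and PR overlapped at 14 of 22 Maf1 regions with vehicle (63.6%, against 53.1%) and 10 of 48 with R5020 (20.8%, 11.7 to 34.3, against 81.7%). As shares of PR regions these were 13 of 57 (22.8%, against 24.5%) and 16 of 37 (43.2%, against 10.2%). With R5020 the share of Maf1 regions that met PR was thus below that of the list, which lies outside the Wilson interval. Its overlap with Brf1 was 33 of 48 regions with R5020 (68.8%, against 2.63% of the Maf1 list) and 8 of 22 with vehicle (36.4%, against 1.77%). As shares of Brf1 regions these were 45 of 87 (51.7%, against 46.5%) and 8 of 9 (88.9%, against 14.4%). POLR3A overlapped PR at 19 of 33 regions with vehicle (57.6%, against 12.4% of the POLR3A list) and 11 of 50 with R5020 (22%, against 15.8%). As shares of PR regions these were 22 of 57 (38.6%, against 1.37%) and 11 of 37 (29.7%, against 0.132%). With vehicle the share of the list lay below the Wilson intervals of both readings (40.8 to 72.8 and 27.1 to 51.6).

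The 6 microRNA genes of the window give a closer view of both gene starts and the 5′ external spacer. Here a region had to share at least 1 bp with the gene. By that count Maf1 had a region at 2 of the 6 genes with vehicle (MIR3648-1 and MIR6724-4) and at 6 of 6 with R5020. With R5020 the region at MIR3648-1 ranked 1357 in its list and the others 7274 to 22109. The vehicle list held 3099 regions, so only the region at MIR3648-1 would remain with equal numbers. Over all RefSeq genes, by the wider 200 bp rule, the Maf1 shares were 4.74% and 21%. MIR3648-1, 2485 bp into RNA45SN2, had Maf1 folds of 2.61 and 10.9, and the strongest Maf1 region with vehicle (5.34) lay next to it without touching it. MIR6724-4, whose hairpin is shown above, had Maf1 folds of 2.82 and 5.31 and H3K27Ac folds of 5.55 and 6.92. Its identical copy MIR6724-2 was touched by an H3K27Ac region with vehicle (5.05), while with R5020 the region chr21:8249661-8249965 (5.39) lay close by without touching it. These calls thus turn on the overlap that is asked for. MIR10396B overlapped a Maf1 region with R5020 (5.72) and no other region. Brf1 had regions at 1 and 3 of the 6 genes, H3K27Ac at 4 and 4, POLR3A at 2 and 1, and PR at 1 and 1. The shares of all RefSeq genes by the 200 bp rule were 0.846% and 1.45% for Brf1 and 39.2% and 40.2% for H3K27Ac. They were 1.22% and 1.3% for POLR3A and 8.22% and 47.3% for PR.

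Further copies of the 45S gene lie on the scaffolds chr22_KI270733v1_random and chrUn_GL000220v1, outside the rule. Brf1 had 8 and 3 regions on them with vehicle and 38 and 37 with R5020. Maf1 had 21 and 10 with vehicle and 15 and 25 with R5020, and the length they covered was 7782 and 2770 bp with vehicle and 28483 and 23878 bp with R5020. POLR3A had 16 and 16, then 19 and 23. PR had 23 and 21, then 24 and 11. The second library set had 0 on both. The broader Brf1 and Maf1 cover with R5020 was thus also present on sequence outside the window, which shares its repeated sequence and is no independent check.

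The window edges did not cut through groups of regions. The outermost members started at 8152744 (H3K27Ac with R5020, fold 3.49) and 8469726 (PR with vehicle, 2.68). The nearest regions beyond the edges started at 8134215 and 8607928 (both PR with R5020, folds 4.48 and 4.11).

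The 5S genes were described in the same lists. The 17 annotated copies are 121 bp each and run from RNA5S1 (chr1:228610266-228610386) to RNA5S17 (chr1:228646038-228646158), with starts 2215 to 2242 bp apart. POLR3A and Brf1, subunits of the polymerase and of its initiation factor, had a region at 17 of 17 copies in both treatments. As background, 1.22% and 1.3% of 59675 RefSeq genes had a POLR3A region within 200 bp with vehicle and R5020, and 0.846% and 1.45% a Brf1 region. POLR3G was also present at 17 of 17 in both (background 26.1% and 22.4%), POLR3C at 15 of 17 in both (1.02% and 1.09%) and H3K27Ac at 16 of 17 in both (39.2% and 40.2%). PR was at 5 copies with vehicle and 0 with R5020, Maf1 at 4 and 13, and POLR3GL at none (0.372% and 0.26%). At a fold of at least 5, POLR3A and Brf1 kept 17 of 17 copies in both treatments and the other 6 antibodies had 0. Fold scales differ between lists, so this does not rank the antibodies. The POLR3G fold of 4.89 at RNA5S4 with vehicle already stood at the 98.6 percentile of its list.

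**Figure D3:**
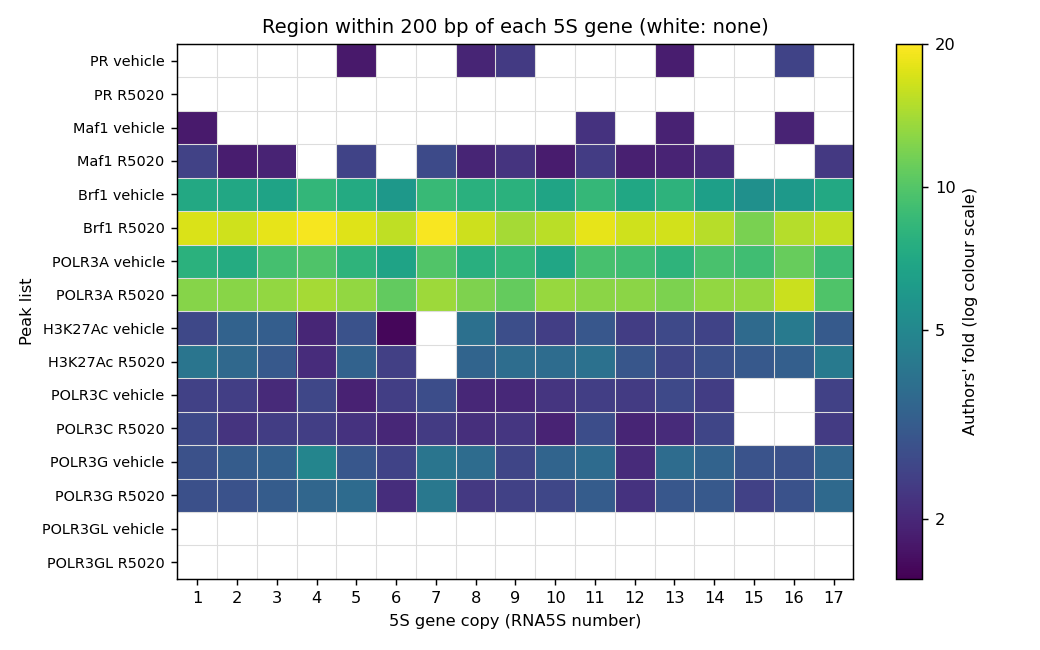
Authors' fold (colour, log scale) of the region within 200 bp of each 5S copy (x axis) in each of the 16 lists (y axis); white means no region. Brf1, POLR3A and POLR3G fill all 17 columns in both treatments, and both POLR3GL rows and the row of PR with R5020 are empty.

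POLR3A values at the 17 copies were close to each other within a list. With vehicle the folds ran from 6.75 at RNA5S6 to 10.9 at RNA5S16, with a median of 8.74. With R5020 they ran from 9.84 at RNA5S17 to 16.3 at RNA5S16, with a median of 12.8. RNA5S16 was thus highest in both lists. The strongest POLR3A region by -log10 q was chr1:228623391-228624213 at RNA5S7 with vehicle (191) and chr1:228643670-228644267 at RNA5S16 with R5020 (219). Over the copies -log10 q ran from 143 to 191 and from 149 to 219.

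Brf1 gave a similar picture. Its folds ran from 5.50 to 8.60 with vehicle (median 7.16) and from 11.9 to 19.4 with R5020 (median 16.5). RNA5S15 was lowest and RNA5S7 highest in both lists. The 2 ranges do not overlap, but they come from separately made lists with unknown depth, and fold levels at other polymerase III genes also stood higher in the R5020 list. The strongest Brf1 regions were chr1:228632400-228632990 at RNA5S11 with vehicle (-log10 q 163) and chr1:228623449-228624529 at RNA5S7 with R5020 (252).

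**Figure D4:**
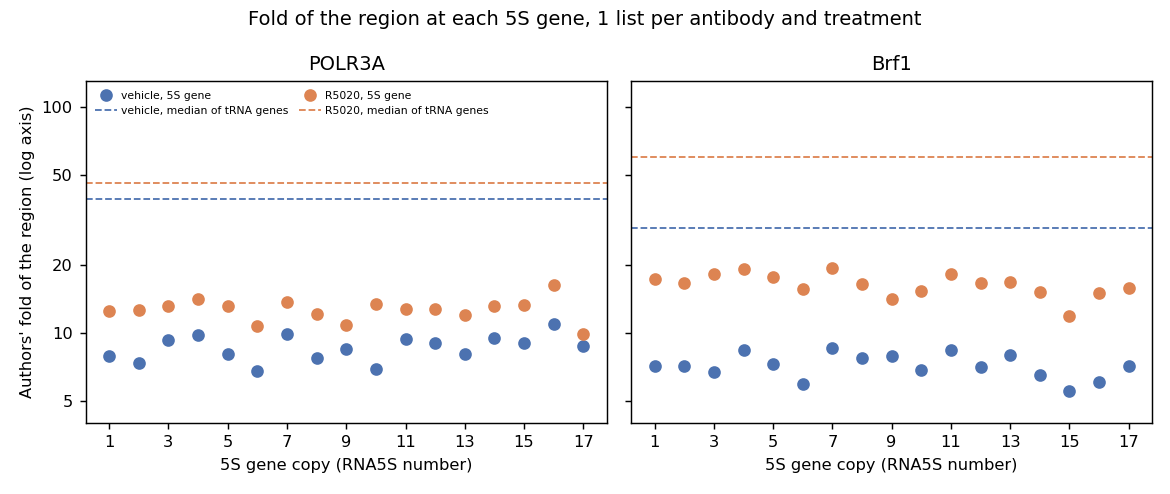
Authors' fold (log axis) of the POLR3A region (left) and the Brf1 region (right) at each of the 17 5S copies, with vehicle (blue) and R5020 (orange); dashed lines are the median over tRNA genes with a region in the same list. Every 5S point lies below the tRNA line of its own list.

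The tRNA genes, which polymerase III also transcribes, served as a reference within each list. POLR3A regions were near 360 (vehicle) and 359 (R5020) of 422 tRNA genes, and Brf1 regions near 300 and 309. Their median POLR3A folds were 39.1 and 46.0 and their median Brf1 folds 29.2 and 59.9. The 5S median was 0.223 and 0.277 of the tRNA median for POLR3A, and 0.246 and 0.276 for Brf1. The 5S copies were thus below tRNA genes for both proteins in both lists. For 13 other polymerase III genes the POLR3A medians were 48.0 and 60.3, again above 5S. The ratio to tRNA genes was 0.472 and 0.352 for POLR3G and 0.580 and 0.551 for POLR3C.

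The summit of POLR3A sat in the gene. It lay inside the 121 bp at 16 of 17 copies in both treatments, with medians of 52 and 70 bp from the lower coordinate. RNA5S9 was the exception in both lists, with summits at 145 and 146 bp. Brf1 summits lay further along, with medians of 128 and 112 bp, and fell inside the gene at 6 and 12 copies. At RNA5S9 the Brf1 summit was again the farthest, at 184 and 178 bp. At RNA5S15 and RNA5S16 both proteins had their summits nearest the lower coordinate, at 9 and 12 bp for POLR3A and 55 and 52 bp for Brf1 with vehicle. The distance between the 2 proteins' summits thus kept its direction at each of these copies.

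**Figure D5:**
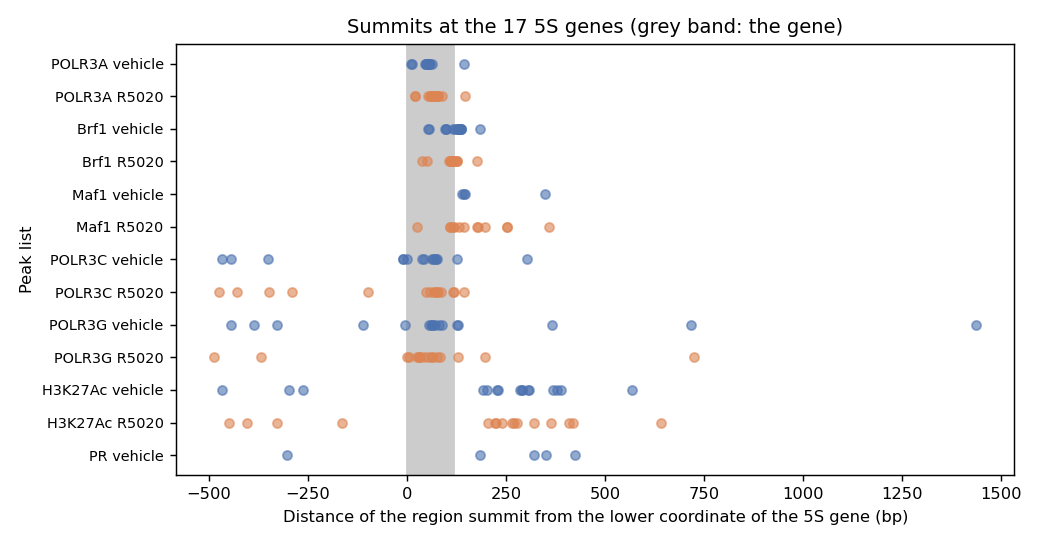
Distance of each region's summit from the lower coordinate of its 5S gene (x axis, bp) for each list with a region (y axis); points are copies, blue vehicle and orange R5020, and the grey band is the 121 bp gene. POLR3A points gather in the band, and all H3K27Ac points lie outside it.

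H3K27Ac had its summits beside the 5S genes, although its regions reached into the gene at 13 copies with vehicle and 12 with R5020. None of its 16 summits lay inside a gene in either treatment, and they ranged from -468 to 569 bp with vehicle and from -449 to 642 bp with R5020. Its folds were 1.57 to 4.37 (median 2.83) with vehicle and 2.09 to 4.31 (median 3.34) with R5020. RNA5S7 was the copy without an H3K27Ac region in both treatments, and the nearest vehicle region, chr1:228623999-228624444, lay 213 bp away, just beyond the 200 bp of the rule (fold 2.76). The call at RNA5S7 with vehicle thus turns on the distance set by the rule.

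The further polymerase III subunits were tested in the second library set. POLR3G, at all 17 copies, had folds of 2.06 to 4.89 (median 3.32) with vehicle and 2.11 to 4.22 (median 2.88) with R5020. Its medians stood at the 81.1 and 52.1 percentiles of its long lists, and its best region, chr1:228616596-228617222 at RNA5S4 with vehicle, ranked 35 of 58502 by -log10 q. POLR3C, absent at RNA5S15 and RNA5S16 in both treatments, had folds of 1.92 to 2.77 (median 2.42) and 1.94 to 2.76 (median 2.27). Summits lay inside the gene at 7 and 12 of 17 copies for POLR3G and at 8 and 9 of 15 for POLR3C. For POLR3G they ranged from -445 to 1437 bp with vehicle and from -486 to 725 bp with R5020. For POLR3C the ranges were -468 to 303 bp and -475 to 145 bp. POLR3GL had no region at any of the near-identical copies, which are not independent and so give no interval. Its lists were nearly empty of polymerase III genes elsewhere too, with 0 of 422 tRNA genes with vehicle and 10 with R5020. The treatment tags in conflict, given at the start, concern the R5020 lists of all 3 of these subunits.

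Maf1 regions at 5S were few and weak with vehicle and more frequent with R5020. With vehicle they lay at RNA5S1, RNA5S11, RNA5S13 and RNA5S16, with folds of 1.81, 2.19, 1.92 and 1.95 (background 4.74% of genes). With R5020 they lay at 13 copies, all but RNA5S4, RNA5S6, RNA5S15 and RNA5S16, with folds of 1.83 to 2.70 (background 21%). Only 3 copies had a region in both lists, and RNA5S16 had one with vehicle only. The median fold stood at the 0.823 and 0.922 percentiles of the lists, among the weakest regions called. With equal numbers of regions in both Maf1 lists, no copy had a Maf1 region with R5020 against 4 with vehicle. At a -log10 q of at least 5 the order of the full lists was kept, with 1 copy with vehicle and 6 with R5020. The order of the treatments thus turns on how the lists are cut.

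PR was near 5S copies with vehicle only. The 5 copies were RNA5S5, RNA5S8, RNA5S9, RNA5S13 and RNA5S16, with folds of 1.79, 1.96, 2.33, 1.84 and 2.54 (background 8.22% of genes). With R5020 the PR list, which reached 47.3% of RefSeq genes, had no region at any copy of this 1 array. These were weak regions, with a median at the 0.773 percentile of the vehicle list, and none of their summits lay inside a gene. Only 1 of the 5 copies had a PR region that touched the gene itself. At tRNA genes the count of PR went the other way, with 9 of 422 with vehicle and 107 with R5020 (2.13% and 25.4%), and at the 13 other polymerase III genes it was 2 and 9.

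The space between the copies showed how far each signal was tied to the genes. Across the array (chr1:228609146-228647278) POLR3A had 17 regions at genes and 5 between them with vehicle, with median folds of 8.74 and 1.97, and 17 and 14 with R5020, with 12.8 and 2.39. Brf1 had 17 and 1 with vehicle (7.16 and 1.97) and 17 and 9 with R5020 (16.5 and 2.67). For these proteins the highest fold between genes, 3.50 for POLR3A and 3.59 for Brf1, both with R5020, was below the lowest at a gene. For POLR3C the medians at and between genes were 2.42 and 2.22 with vehicle and 2.22 and 2.13 with R5020, and for POLR3G 3.32 and 2.47, then 2.87 and 2.33. The contrast between gene and spacer was thus slight for POLR3C. POLR3G regions covered 75.8% and 63.6% of the array, against 44.6% and 48.5% for POLR3A. Maf1 covered 2.40% and 14.4%, and PR 5.60% and 0.776%.

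Some copies carried the same values. RNA5S5 and RNA5S13 had the same fold and -log10 q in the vehicle POLR3A list, and RNA5S3, RNA5S5 and RNA5S14 in the R5020 list. RNA5S1 and RNA5S17 did so in the vehicle Brf1 list and RNA5S3 and RNA5S11 in the R5020 list. The counts of 17 of 17 should thus be read as 1 array rather than 17 observations. Annotated 5S pseudogenes elsewhere, 510 of them, had POLR3A regions at 21 and 20, Brf1 regions at 5 and 10 and POLR3C regions at none. H3K27Ac regions were at 22 and 28 and POLR3G regions at 13 and 9. PR regions were at 0 and 35 and Maf1 regions at 0 and 7. These PR and Maf1 counts with R5020 were below the shares over all RefSeq genes, 47.3% for PR and 21% for Maf1.

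At the limit of the rule, the members farthest from a copy were chr1:228627785-228627945, a vehicle PR region 200 bp from RNA5S9 (fold 2.33), and chr1:228636582-228636896, an R5020 POLR3C region 197 bp from RNA5S13 (1.64). The nearest regions outside were the H3K27Ac region beside RNA5S7 described above and chr1:228621788-228622029, an R5020 H3K27Ac region 222 bp from RNA5S6 (2.66).

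Matching between treatments was also counted at 5S. There POLR3A regions were matched at 17 of 17 copies in both directions, against 80.9% of the vehicle list and 47.3% of the R5020 list. Brf1 regions were also matched at 17 of 17 in both directions, against 96.3% and 27%, so the vehicle count was near that of its list. With vehicle, 17 of 17 POLR3A regions overlapped a Brf1 region, against 49.2% of the list. POLR3C with vehicle was matched at 15 of 15 regions (against 61.5% of its list) and POLR3G at 17 of 17 (against 39.2%). In the other direction POLR3C with R5020 was matched at 16 of 17 regions (against 60.8%) and POLR3G at 18 of 18 (against 56.9%). At 45S, POLR3A matched at 18 of 33 and Brf1 at 8 of 9 vehicle regions.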

How the data were processed

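Libraries were grouped by their titles. Members and gene lists were chosen with earlier results of these data known. The submitters' processing notes name cutadapt, Bowtie2, MACS2 and the hg38 build, without versions, roles or settings. How the 3 replicates were combined, the control library and the treatment of reads mapping to several places are not given in the sources used here. In each deposited narrowPeak list the authors gave per region a fold (a ratio over background), the -log10 of the q-value, a score (10 times that value, cut to a whole number) and the summit. The lowest -log10 q over all lists was 1.3. Fold and -log10 q served only to describe, rank or filter regions within a list. No overlapping rows occurred within a list (0).

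Genes came from a RefSeq table of GRCh38.p14, the same assembly as hg38. It gives no strand, so 5S distances count from the lower coordinate; 3 of 6 microRNA genes matched a hairpin entry, and no rRNA gene was matched. A gene had a region within 200 bp of its span, and where several lay there the one with the highest -log10 q was used; a microRNA gene had to share 1 bp with the region. 45S regions were placed by their summit, and covered length was counted in bases. Lists shared a region at 1 bp of overlap. Reference genes were 422 nuclear tRNA genes and 13 other polymerase III genes. The named region of each list is its highest by -log10 q at either locus; the 5 highest PR folds with R5020 were added after seeing the values. Shares at 45S have 95% Wilson intervals, for counting error only, and a count of 0 there allows 3 regions. No test between treatments was made, since each treatment has 1 list per antibody. The matching of regions to genes was tested on simulated positions. Alternatives were minima of 5 on the -log10 q or on the fold, equal numbers of regions per pair of lists, any overlap with the 45S window, and overlap with the 5S gene itself. Computations used Python 3.11.15, numpy 2.4.6, pandas 2.3.3, scipy 1.17.1 and matplotlib 3.10.9.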

Additional observations from a re-analysis of the deposited data

How the results depend on the processing

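At 45S, counting any overlap with the window left all 16 counts within 1.5 times. At a minimum of 5 on the -log10 q, the counts with vehicle and R5020 were 23 and 13 for PR, 3 and 57 for Brf1 and 9 and 10 for H3K27Ac. They were 11 and 41 for Maf1 and 22 and 25 for POLR3A. With a fold of at least 5 they were 1 and 5 for PR, 1 and 28 for Maf1, 0 and 45 for Brf1, 4 and 10 for POLR3A and 4 and 5 for H3K27Ac. With equal numbers of regions the R5020 counts were 0 for PR, 4 for Maf1, 1 for Brf1 and 3 for POLR3A. At 5S, -log10 q of at least 5 gave 2 copies for PR with vehicle and 1 and 6 for Maf1. A fold of at least 5 gave 0 copies for PR with vehicle and, in both treatments, 0 for Maf1, H3K27Ac, POLR3C and POLR3G. Equal numbers gave 0 for Maf1 with R5020, and overlap with the gene itself gave 1 for PR with vehicle. POLR3A and Brf1 stayed at 17 of 17 copies under all 4 alternatives run at 5S. The cause of these differences was not tested, apart from equal numbers, which removes regions of the longer list. Leaving out replicates was not run, because each list stands for 3 libraries. No paired analysis was possible because the lists carry no replicate numbers.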
